A study of Mus musculus with 12 samples.

Results

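Serpins are a family of protease inhibitors, here taken as every probe whose gene name on the array starts with Serpin. There were 73 such probes among 41174 probes on the array, and they carried 54 gene names. The clade letter that follows the family name (Serpina to Serpini) was used to group them. Of the 54 genes, 50 could be tested among 20595 genes, and 4 (Serpina1f, Serpinb3a, Serpinb3d and Serpinb9b) were too dim.

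Each of 12 arrays received RNA from a Dnmt3a KO and from a WT mouse lung tumour, one labelled with Cy3 and the other with Cy5. All mice were of C57/129 strain, came from a cross with K-ras LSL-G12D mice and received Cre recombinase through an adenovirus given by the airways, so the WT tumours carried the mutant K-ras G12D too. The KO tumours arose in mice that were homozygous for a conditional KO of Dnmt3a, which encodes a de novo DNA methyltransferase. In both groups recombination took place in lung cells, and cells that Cre did not reach kept their Dnmt3a. Ages and sexes in the labels put the arrays into 4 pairs. Pair A (replicates 1 to 4, slide 1) set KO mice of age 47.7 against WT mice of age 42.6, and pair B (replicates 5 to 8, slide 2) set age 27 against 41.3. Pair C (replicates 9 and 10) set age 27 against 47.6, and pair D (replicates 11 and 12) set age 29.1 against 37.3, both on slide 3. Pairs A and B held both dye orientations, whereas the KO RNA was in Cy5 on both arrays of pair C and in Cy3 on both arrays of pair D. The labels give ages without a unit. The mice were male except the WT mice of pair C, which were female. The submitters' design text counts 12 biological replicates, but the labels do not say whether arrays of a pair share animals, so p-values measure the spread between these arrays, which may be technical.

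An inhibitory serpin offers a protease an exposed loop as bait. When the protease cuts the loop, the serpin snaps into a new fold and traps the enzyme in an inactive complex that receptors then clear. Some members have lost this activity and serve as hormone carriers, as a collagen chaperone or as secreted signals. In the lung the family is best known through alpha-1-antitrypsin, which restrains neutrophil elastase, and through the inhibitors that set the pace of clotting and fibrinolysis.

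The labelled genotype was read in Dnmt3a itself. Its ratio of KO over WT RNA was below 0 on 12 of 12 arrays, with a fitted log2 ratio of -0.21 ± 0.05 (SE, n = 12 arrays) and an adjusted p of 0.0213 with limma. The call was kept with any 1 array left out and lost with any 1 pair left out (adjusted p 0.0567 to 0.0765). The labels do not say whether its probe lies in the deleted part, so this ratio is a weak check of the labels. In KO and WT RNA, between 59.0% and 89.6% of probes were well above background, and the 8 channels of slide 3 (59.0% to 72.2%) were dimmer than those of slides 1 and 2 (81.6% to 89.6%). No Serpin probe was saturated on any array.

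Across all genes, 1471 passed an adjusted p of 0.05 with limma (7.14% of those tested), of which 694 were higher in KO tumours (3.37%) and 777 lower (3.77%). Among the 50 tested Serpin genes, 1 was higher and 5 were lower. The higher gene was Serpinf1, and the lower ones were Serpina1b, Serpina1d, Serpina1e, Serping1 and Serpinb6b. The median log2 ratio was -0.03 over the Serpin genes and -0.01 over all genes, with a range from -1.18 (Serpina1d) to 1.72 (Serpinf1) in the family. Clade A had 3 of 19 tested genes lower, clade B had 1 of 21 lower, clade F had 1 of 2 higher and the single gene of clade G was lower. Clades E and I (2 genes each) and clades C, D and H (1 gene each) had no call. At an unadjusted p under 0.05, 15 of the 50 Serpin genes passed, and 22.4% of all genes did.

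**Figure D1:**
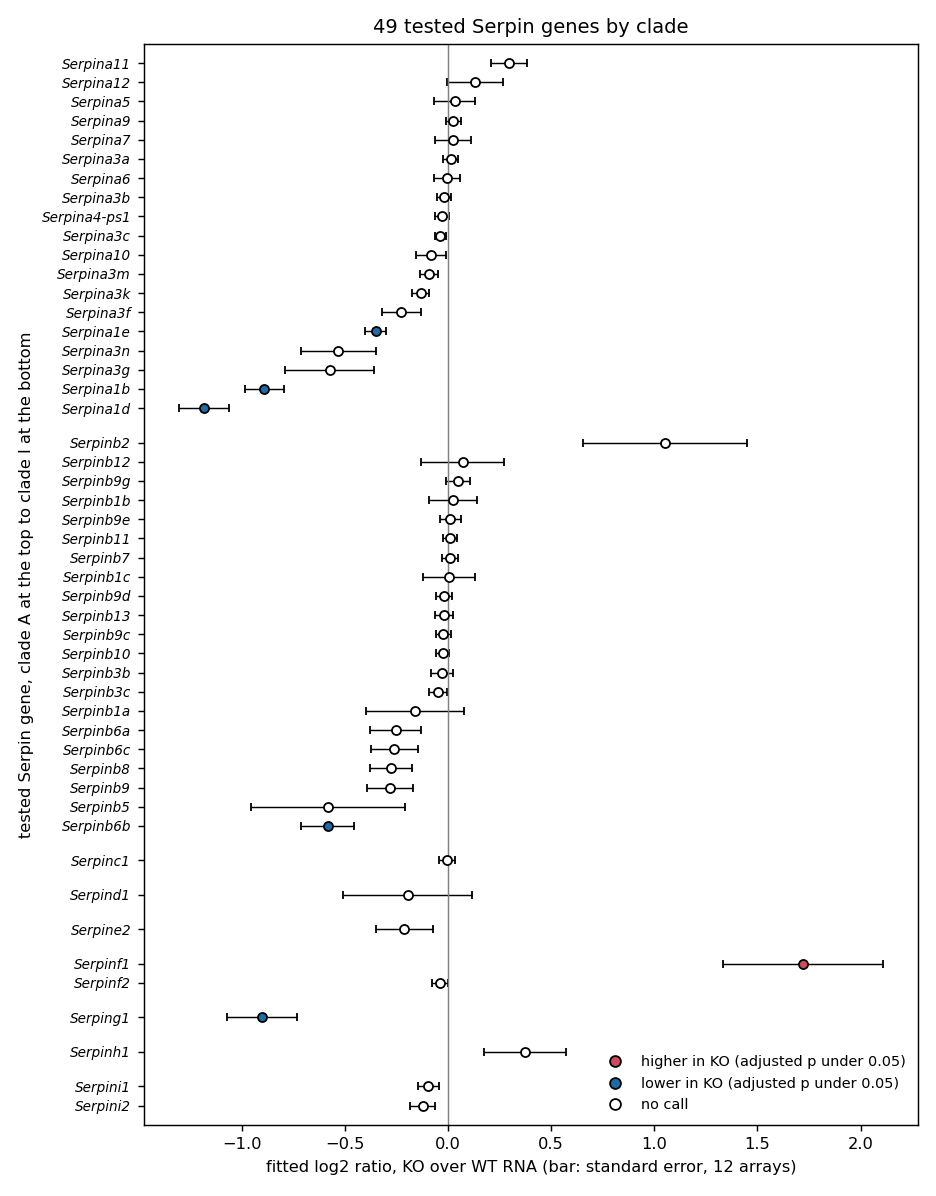
Fitted log2 ratio of KO over WT RNA (horizontal axis) for 49 of the 50 tested Serpin genes, clade A at the top to clade I at the bottom, with bars of 1 standard error over 12 arrays. Filled points passed an adjusted p of 0.05; the 1 higher gene, Serpinf1, lies at 1.72 and the lowest gene, Serpina1d, at -1.18.

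Clade A holds the secreted serpins of plasma, and the Serpina1 genes in it encode mouse alpha-1-antitrypsin. They lie side by side on chromosome 12 as recent copies of one gene. Serpina1b, Serpina1d and Serpina1e moved together, so the 250 bases before each start site are shown. Those of Serpinf1, the 1 member called in the other direction, are shown with them. CG, the dinucleotide that Dnmt3a methylates, is in capitals. Sequences are RefSeq's on build GRCm38.p6, all from the minus strand and printed 5′ to 3′, at chr12:103738190-103738439 for Serpina1b, chr12:103773634-103773883 for Serpina1d, chr12:103956898-103957147 for Serpina1e and chr11:75422624-75422873 for Serpinf1.
Serpina1b: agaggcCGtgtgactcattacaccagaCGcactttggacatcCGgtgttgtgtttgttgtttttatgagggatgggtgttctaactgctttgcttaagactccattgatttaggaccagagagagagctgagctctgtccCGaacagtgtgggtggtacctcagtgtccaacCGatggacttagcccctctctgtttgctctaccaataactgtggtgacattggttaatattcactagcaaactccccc
Serpina1d: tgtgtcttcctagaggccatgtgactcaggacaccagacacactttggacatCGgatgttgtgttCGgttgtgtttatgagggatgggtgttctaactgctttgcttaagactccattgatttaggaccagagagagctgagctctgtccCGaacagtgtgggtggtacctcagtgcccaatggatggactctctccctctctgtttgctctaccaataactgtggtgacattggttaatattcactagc
Serpina1e: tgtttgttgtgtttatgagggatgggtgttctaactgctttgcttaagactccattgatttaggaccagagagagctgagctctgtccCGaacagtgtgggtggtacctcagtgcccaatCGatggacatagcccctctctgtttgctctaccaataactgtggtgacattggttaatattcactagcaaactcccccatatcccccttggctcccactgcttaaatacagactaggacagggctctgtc
Serpinf1: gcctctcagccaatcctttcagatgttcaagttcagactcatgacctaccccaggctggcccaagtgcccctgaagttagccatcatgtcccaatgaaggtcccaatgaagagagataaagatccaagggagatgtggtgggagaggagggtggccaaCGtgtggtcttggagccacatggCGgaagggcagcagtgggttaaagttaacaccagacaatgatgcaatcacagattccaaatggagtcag

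These windows hold few CG, with 5 in the Serpina1b stretch, 3 in that of Serpina1d, 2 in that of Serpina1e and 2 in that of Serpinf1. Windows of 300 bases, which add 50 bases after the start, were aligned end to end, and 86.9% of aligned columns were identical between Serpina1b and Serpina1d. The Serpina1e window starts further along the shared sequence, and its identity was 69.3% with Serpina1b and 63.9% with Serpina1d. Against the Serpinf1 window the 3 had 48.2% to 49.9%, a scale for unlike windows. The letters GTTAAT, letters that the liver factor HNF1 recognises, occurred 1 time in each Serpina1 window on either strand and 0 times in that of Serpinf1. Of the 44 members with such a window, 9 held GTTAAT in at least 1 of their windows, and 7.1% of 32851 mouse windows, counted singly, did. Methylation was not measured on these arrays.

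Serpina1d had the largest fall of the family. Its ratio ran from -1.89 to -0.36 over the 12 arrays with a median of -1.13, and it was below 0 on every array. The normalized log2 level ran from 9.84 to 11.41 in WT RNA (median 10.52) and from 8.73 to 10.66 in KO RNA (median 9.17). Of the 12 KO levels, 11 lay below every WT level, and the exception was an array of pair B. The fitted log2 ratio was -1.18 ± 0.12 (SE, n = 12 arrays), a 2.27-fold lower signal, with an adjusted p of 0.000539 with limma. After dye adjustment pairs A to D had -1.34, -0.84, -1.16 and -1.54 in turn. Pairs C and D each held a single dye orientation, so their adjustment was taken from pairs A and B.

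Serpina1b, another alpha-1-antitrypsin gene, followed the same course with dimmer spots, which were well above background for KO RNA on 8 arrays and for WT RNA on 11. Its ratio lay between -1.38 and -0.22 (median -0.95), again below 0 on 12 of 12 arrays. Levels were 6.99 to 8.28 in WT RNA (median 7.49) and 6.12 to 7.48 in KO RNA (median 6.59), and 10 KO levels lay below every WT level. The fitted log2 ratio was -0.89 ± 0.09 (SE, n = 12 arrays), 1.85-fold lower, with an adjusted p of 0.000562 with limma. With the scanner's processed signals the ratio was -1.92.

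The Serpina1e probe had the smallest ratio of the 3. It was between -0.63 and -0.20 (median -0.30) and below 0 on 12 of 12 arrays, and its spots were well above background for KO RNA on 8 arrays and for WT RNA on 11. WT levels of 6.86 to 7.42 (median 7.11) stood against KO levels of 6.57 to 6.97 (median 6.74), and 8 KO levels were below every WT level. The fitted log2 ratio was -0.35 ± 0.05 (SE, n = 12 arrays), with an adjusted p of 0.00295 with limma, and with the scanner's processed signals it was -0.79.

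The array annotation ties the Serpina1d probe to transcripts of 3 genes (Serpina1c, Serpina1d and Serpina1e) and the Serpina1e probe to 4 (those and Serpina1b). Signals of these copies cannot be told apart, and the 3 calls are not 3 independent genes. Serpina1a and Serpina1c have no probe under their own names. The Serpina1b probe lies at chr12:101224607-101226106, the Serpina1d probe at chr12:101257751-101257810 and the Serpina1e probe at chr12:101445204-101445263, all on the minus strand of build mm7, per the file headers.

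The neighbours of this cluster did not pass the test. Serpina10, which inhibits coagulation factor X, had a log2 ratio of -0.08 (adjusted p 0.567 with limma), while its second probe gave 0.28 ± 0.13 and was above 0 on 9 of 10 arrays. Serpina6, the carrier of corticosteroids, had -0.0034 (adjusted p 0.984). Serpina11, on the other side, had 0.30 ± 0.09 (SE, n = 12 arrays) and was above 0 on 10 of 12 arrays, with an adjusted p of 0.0636. Serpina11 passed under 6 of 36 alternative settings, among them without replicate 11 (adjusted p 0.0354) and with the scanner's processed signals (0.86, adjusted p 0.0456).

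Serpina1 genes are made chiefly by hepatocytes, and the hepatocyte markers were read beside them. Of 10 such markers 9 were tested (Ttr was too dim). Of these, 2 were higher in KO tumours and 0 lower, where 3.37% of all genes were higher and 3.77% lower. Ahsg had a log2 ratio of 1.43 ± 0.27 and Apoa1 of 1.14 ± 0.23 (SE, n = 12 arrays), with a median of 0.27 over the list. The summed log2 level of the list was 10.98 to 12.79 in WT RNA and 11.58 to 13.95 in KO RNA. The hepatocyte markers that passed thus went up while the Serpina1 probes went down. Alveolar type 2 cells can make alpha-1-antitrypsin as well, and of their 9 markers only Lamp3 passed, at -0.78 ± 0.19, with a list median of -0.09. The 8 without a call ran from -0.21 (Sftpc) to 0.36 (Abca3, adjusted p 0.0785 with limma). The part of either cell type in the Serpina1 result was not tested. In tumour tissue, fewer cells of a type and less RNA per cell cannot be told apart.

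**Figure D2:**
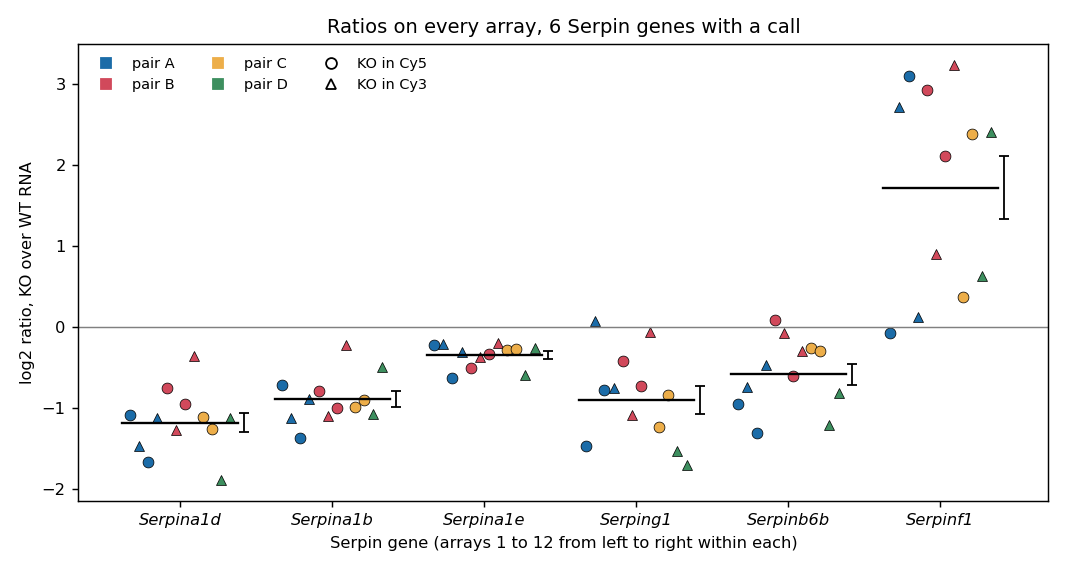
Log2 ratio of KO over WT RNA on each of the 12 arrays (vertical axis) for the 6 Serpin genes that passed, arrays 1 to 12 from left to right, with the fitted ratio as a line and its standard error as a bar beside it. Colours give the pair and shapes the dye of the KO RNA; all points of the 3 Serpina1 genes lie below 0, and Serpinf1 has 11 of 12 points above 0.

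The Serpina3 genes are the mouse counterparts of alpha-1-antichymotrypsin, an acute-phase inhibitor of chymotrypsin-like enzymes. In these 8 tested genes limma made 0 calls, and 4 passed at an unadjusted p under 0.05, as did 22.4% of all genes. Serpina3n, an inhibitor of granzyme B and elastase, was lower on 10 of 12 arrays, with ratios from -1.32 to 0.56 (median -0.69). Its fitted log2 ratio was -0.53 ± 0.18 (SE, n = 12 arrays), with an adjusted p of 0.101 with limma. Serpina3g, chosen after its values were seen, had -0.57 ± 0.22 and an adjusted p of 0.137, with ratios from -1.60 to 0.82. The lowest dye-adjusted values of both came from pair D, at -1.54 for Serpina3n and -1.48 for Serpina3g, against -0.18 and -0.21 in pair A. Without the adjustment, which came from pairs A and B, the arrays of pair D had -0.99 and -1.32 for Serpina3n. For Serpina3g they had -1.60 and -1.47. Serpina3k had a ratio of -0.13 ± 0.04 that was below 0 on 12 of 12 arrays, with an adjusted p of 0.0709. With the scanner's processed signals it was -0.47 (adjusted p 0.126), and with arrays taken as independent the adjusted p was 0.0455. Along with the 3 Serpina1 genes it made 4 members of 50 with the same sign on every array, against 2% of all genes. The signals of the Serpina1 copies cannot be told apart, so these 4 are not 4 independent genes. The other 5 tested Serpina3 genes had log2 ratios between -0.23 (Serpina3f) and 0.01 (Serpina3a).

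The rest of clade A are mostly carriers or inhibitors in plasma. Serpina7, the carrier of thyroxine, had a log2 ratio of 0.02, Serpina5, the inhibitor of protein C, had 0.03, and Serpina12, an adipose hormone also called vaspin, had 0.13 from 10 arrays with a usable spot. None of the 3 passed, and their adjusted p values ran from 0.641 to 0.913 with limma.

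Clade B serpins mostly stay inside cells, where they protect against leaked granule and lysosomal proteases. Serpinb6b was the 1 called member of 21 tested. Its ratio was between -1.31 and 0.08 over the 12 arrays (median -0.54), below 0 on 11 of 12, and the exception was in pair B. WT levels ran from 10.51 to 12.10 (median 11.18) and KO levels from 10.04 to 11.10 (median 10.77), so that only 1 KO level lay below every WT level. The fitted log2 ratio was -0.58 ± 0.13 (SE, n = 12 arrays), with an adjusted p of 0.0235 with limma. Pairs A and D had -0.87 and -1.16 after dye adjustment, and pairs B and C had -0.23 and -0.13. Unadjusted ratios were -0.26 and -0.30 on the arrays of pair C and -1.21 and -0.82 on those of pair D. An F test of the difference between pairs gave an adjusted p of 0.238, the smallest of any Serpin gene. Without replicate 12 the adjusted p was 0.0534, without pair A 0.138, without pair D 0.080 and with median centring in place of loess 0.0822.

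Its close relatives had smaller values of the same sign and did not pass. Serpinb6a, an inhibitor of trypsin-like enzymes and cathepsin G, had a log2 ratio of -0.25 ± 0.12, and Serpinb6c had -0.26 ± 0.11 (SE, n = 12 arrays). Their adjusted p values were 0.252 and 0.196 with limma, and both genes were chosen after their values were seen. Serpinb9, the inhibitor of granzyme B, had -0.28 ± 0.11 (adjusted p 0.156), and its second probe gave -0.41 ± 0.13. Serpinb8, an inhibitor of furin, had -0.28 ± 0.10 (adjusted p 0.132), whereas its second probe read 0.00032.

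Serpinb2 and Serpinb5 varied most from array to array in this clade. Serpinb2, an inhibitor of plasminogen activators (PAI-2), had ratios from -1.89 (replicate 1) to 2.89 (replicate 7), with 10 of 12 above 0 and a median of 0.99. Its level was 6.69 to 9.03 in WT RNA (median 7.61) and 7.14 to 10.36 in KO RNA (median 8.77), and 5 KO levels lay above every WT level. The fitted log2 ratio was 1.05 ± 0.40 (SE, n = 12 arrays) with an adjusted p of 0.139 with limma. Without replicate 1 it was 1.34 with an adjusted p of 0.0240, so 1 array decided this call. Its second probe gave 0.85 ± 0.35 with ratios above 0 on 10 of 12 arrays. Serpinb5, or maspin, an epithelial serpin that does not inhibit proteases, had ratios from -2.27 to 2.65 and was lower on 8 of 12 arrays (chosen after its values were seen). Pair A stood at -1.73 and pair B at 0.46, and the fitted log2 ratio was -0.58 ± 0.37 with an adjusted p of 0.402.

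The remaining tested clade B genes include Serpinb1a, an inhibitor of neutrophil elastase and cathepsin G, at -0.16 ± 0.24 (SE, n = 12 arrays) with ratios from -1.72 to 1.35. The Serpinb3 genes, relatives of the squamous cell carcinoma antigens, lay at -0.03 (Serpinb3b) and -0.05 (Serpinb3c). Serpinb12 had 0.07 ± 0.20. Serpinb13 was fitted on 11 arrays and lay at -0.02. In the annotation the Serpinb3b probe is also tied to Serpinb3a and the Serpinb9g probe to Serpinb9f.

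**Figure D3:**
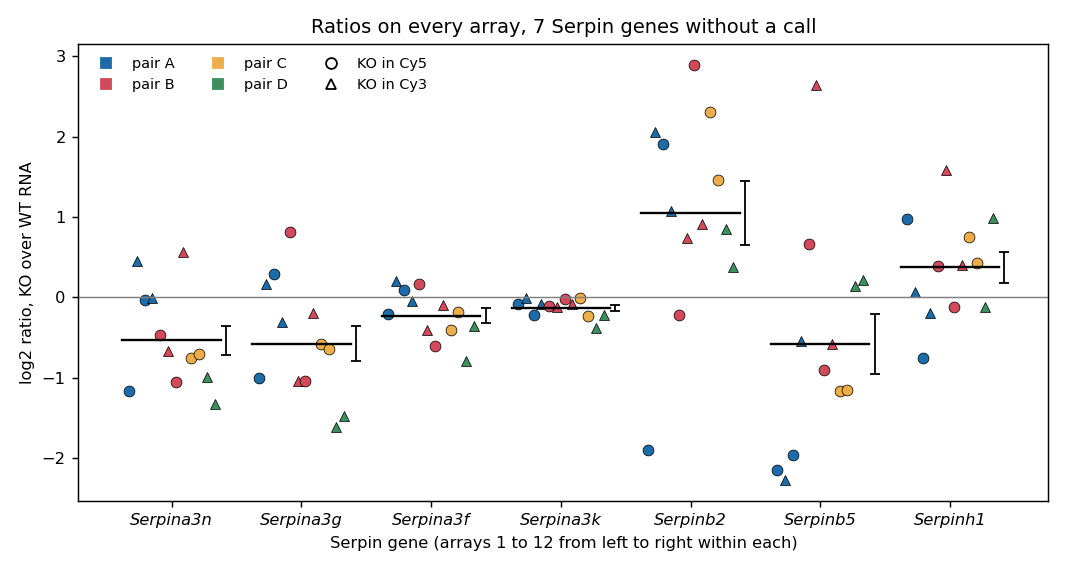
Log2 ratio of KO over WT RNA on each of the 12 arrays (vertical axis) for 7 Serpin genes that did not pass, with fitted ratio, standard error, colours and shapes as for the called genes. Serpinb2 spans -1.89 to 2.89 and Serpinb5 -2.27 to 2.65, whereas the 12 points of Serpina3k all lie between -0.38 and 0.

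Serpinf1 encodes pigment epithelium-derived factor, a secreted serpin that does not inhibit proteases and is known for restraining vessel growth. It was the 1 member called higher. On arrays 1 to 4 (pair A) its log2 ratios were -0.08, 2.71, 3.09 and 0.12, and on arrays 5 to 8 (pair B) they were 2.93, 0.90, 2.11 and 3.24. On arrays 9 and 10 (pair C) they were 0.37 and 2.38, and on arrays 11 and 12 (pair D) 0.62 and 2.41. High and low ratios stood side by side within every pair, and only replicate 1 was below 0. WT levels ran from 9.19 to 12.54 (median 10.64) and KO levels from 10.57 to 13.48 (median 12.92), and 9 KO levels lay above every WT level. The fitted log2 ratio was 1.72 ± 0.39 (SE, n = 12 arrays), 3.30-fold higher, with an adjusted p of 0.0249 with limma.

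The rise of Serpinf1 was seen in every pair after dye adjustment, with 1.46, 2.29, 1.24 and 1.65 for pairs A to D in turn, and an F test of their differences gave an adjusted p of 0.905. Its second probe had 0.98 ± 0.19 (SE, n = 12 arrays), above 0 on 11 of 12 arrays, with an adjusted p over all probes of 0.0147 with limma, where 5.71% of probes passed. The probes lie at chr11:75491640-75491699 and chr11:75497235-75497294, on the minus strand of build mm7. The call was close to its threshold. Without replicate 2, 3 or 12 the adjusted p was 0.0502, 0.0526 and 0.0576, without pair A, B or D it was 0.0592, 0.114 and 0.0540, and with median centring 0.0609, all with ratios of 1.45 to 1.85.

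Serpinf2, the plasma inhibitor of plasmin, is the neighbour of Serpinf1 on chromosome 11. Its log2 ratio was -0.04 ± 0.04 (SE, n = 12 arrays) with an adjusted p of 0.638 with limma, and Smyd4 on the other side had 0.0021 ± 0.08. Within 4 genes on either side of the called members, 16 genes outside the family were tested, of which 0 passed with limma and 1 had an unadjusted p under 0.05.

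Fibroblasts are a usual source of Serpinf1. Of 10 fibroblast markers tested, Lum was higher at 1.13 ± 0.30 and Pcolce lower at -0.89 ± 0.21 (SE, n = 12 arrays). The list median was -0.18, and 3.37% of all genes were higher and 3.77% lower. The summed log2 level of that list was 14.52 to 16.45 in WT RNA and 14.67 to 16.45 in KO RNA, so the ranges overlapped. The part of fibroblasts in the Serpinf1 result was not tested.

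**Figure D4:**
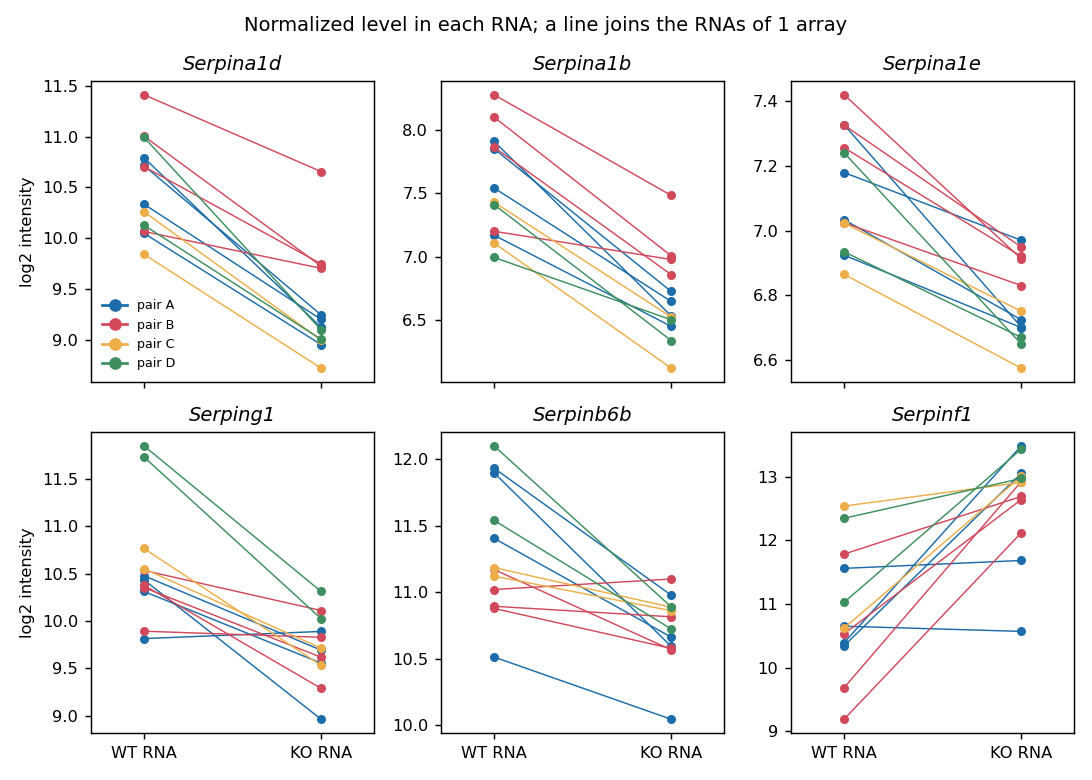
Normalized log2 intensity in the WT RNA (left) and the KO RNA (right) of each array for the 6 Serpin genes that passed, with a line joining the RNAs of 1 array and colours for the pair. For Serpina1d 11 of 12 KO levels lie below every WT level, for Serpinf1 9 of 12 lie above every WT level, and for Serpinb6b 1 of 12 lies below every WT level.

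Serping1 encodes the C1 inhibitor, which blocks the first proteases of the complement and contact systems. Its ratio ran from -1.71 to 0.08 (median -0.81) and was below 0 on 11 of 12 arrays, the exception being in pair A. WT levels were 9.81 to 11.85 (median 10.46) and KO levels 8.96 to 10.31 (median 9.70), and 7 KO levels lay below every WT level. The fitted log2 ratio was -0.90 ± 0.17 (SE, n = 12 arrays), 1.87-fold lower, with an adjusted p of 0.0112 with limma. After dye adjustment pair D was lowest at -1.82, and pairs A, B and C had -0.73, -0.58 and -0.84. Unadjusted, the arrays of pair D had -1.54 and -1.71. The F test between pairs gave an adjusted p of 0.445. With pairs A and B alone the ratio was -0.66 and the adjusted p 0.0653. The probe lies at chr2:84609527-84611033 on the minus strand of build mm7.

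Endothelial cells are among those that make the C1 inhibitor, and their markers fell with it. Of 10 endothelial markers 9 were lower in KO tumours and 0 higher, where 3.77% of all genes were lower. The lower ones included Cdh5 at -0.83 ± 0.08 and Pecam1 at -0.65 ± 0.06 (SE, n = 12 arrays), and the list median was -0.64. The summed log2 level of the list was 14.20 to 14.89 in WT RNA and 13.58 to 14.08 in KO RNA, which did not overlap. Of 8 markers of smooth muscle and pericytes 4 were lower, with a median of -0.36, and the summed level was 14.73 to 15.52 in WT RNA and 14.42 to 14.88 in KO RNA. Other marker lists went differently. Of 9 macrophage markers tested 1 was lower and 0 higher, with a median of -0.23. The hepatocyte list had 2 higher and 0 lower, and the fibroblast list 1 higher and 1 lower. The part of any of these cell types in the Serping1 result was not tested.

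Serpine2 of clade E, also called protease nexin 1, inhibits thrombin and urokinase. It had a log2 ratio of -0.21 ± 0.14 (SE, n = 12 arrays) with an adjusted p of 0.409 with limma. Of the plasma inhibitors of thrombin, antithrombin (Serpinc1) had -0.0045 ± 0.04 and its second probe at -0.01. Serpind1 (heparin cofactor II) had -0.20 ± 0.31 with ratios from -1.91 to 1.83.

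Serpinh1, or HSP47, is the chaperone of procollagen in the endoplasmic reticulum. Its ratio ran from -0.75 to 1.58 (median 0.40), above 0 on 8 of 12 arrays, and its fitted log2 ratio was 0.37 ± 0.20 (SE, n = 12 arrays) with an adjusted p of 0.294 with limma. In clade I, Serpini1 (neuroserpin, the brain inhibitor of tissue plasminogen activator) had -0.09 ± 0.05 from 11 arrays and Serpini2 had -0.12 ± 0.06, with adjusted p values of 0.321 and 0.254.

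By the limma F test between the 4 pairs, 70 of 20488 genes passed (0.342%) and 0 of 49 Serpin genes did, with 5 at an unadjusted p under 0.05, as had 12.2% of all genes. The pairs differ in age, slide, dye orientation and, for pair C, the sex of the WT mice, which cannot be told apart here. The family varied between arrays about as much as other genes did. The median SD of the ratio over 12 arrays was 0.303 for the Serpin genes and 0.288 for all genes, and the median SD of the WT level was 0.323 against 0.296. Serpinb5 and Serpinf1 had an SD of the WT level over 1, at 1.28 and 1.01, as did 1.73% of all genes.

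Promoters of the family were poor in CG. Of the 54 members, 44 had a window in RefSeq's table, and over their 52 windows the median was 3.5 CG against 7 over 32851 mouse windows. Windows with at least 10 CG were held by 6 of the 44 members, against 43.5% of all windows. Here and for the letters below, a member counted with any of its windows, whereas all windows were counted singly. Those 6 (Serpine2, Serpinb6a, Serpinh1, Serpini1, Serpina3a and Serpinb6c) had 0 calls with limma (1 with an unadjusted p under 0.05) and a median log2 ratio of -0.15. Of the 34 tested members whose windows held fewer, 1 was higher and 4 lower, with a median of -0.02. Over all genes 7.14% were called in either direction. The 4 lower ones were Serpinb6b and the Serpina1 genes, whose signals cannot be told apart, and the called Serping1 had no window. Whether calls go with the number of CG was not tested. Other letters searched on both strands were TATAAA (15 of 44 members against 13.6% of all windows), CAGACA (9 against 21.0%), TTCNNNGAA (7 against 8.30%) and ACGTG (5 against 19.6%).

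The proteases and receptors that serpins meet were read on the same arrays. Of 23 genes of coagulation and fibrinolysis, 0 were higher and 3 lower, with a median of -0.02, where 3.37% of all genes were higher and 3.77% lower. The lower ones were Thbd, the thrombin receptor that activates protein C, at -1.17 ± 0.21, Tfpi, the inhibitor of the tissue factor pathway, at -0.54 ± 0.08, and Vtn, an adhesion protein of plasma and matrix, at -0.36 ± 0.08 (SE, n = 12 arrays). Plaur, the urokinase receptor, had -0.40 ± 0.13 with an adjusted p of 0.0814 with limma. A list of leukocyte granule proteases, some of them targets of Serpina1, Serpina3 and Serpinb9 proteins, had 17 tested genes. Of these, 0 passed with limma, 2 had an unadjusted p under 0.05 and the median was 0.01. A list of trypsin-like and other serine proteases, their relatives and receptors had 26 tested genes. Of these, F2rl1 was higher at 0.28 ± 0.07, and Prss23 (-0.69 ± 0.15), Masp1 (-0.55 ± 0.12) and Furin (-0.38 ± 0.09) were lower. Masp1 is a complement protease that Serping1 protein inhibits, and Furin is the target of Serpinb8 protein. Leaving out 1 array ended the call of F2rl1 for 7 of the 12 arrays, of Furin for 3 (replicates 1, 3 and 12) and of Masp1 and Vtn for 1 (replicate 12). With the mean of its kept probes Masp1 had -0.15.

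Of 14 genes for cathepsins and legumain, Ctsd (-0.93 ± 0.14) and Ctsl (-0.28 ± 0.06) were lower and 0 higher (SE, n = 12 arrays). The list median was -0.23. As a scale for this and the next lists, 3.37% of all genes were higher and 3.77% lower. Among 15 protease inhibitors outside the family, Wfdc1 (-0.56 ± 0.15) and Spink2 (-0.50 ± 0.13) were lower, and Slpi, a further inhibitor of neutrophil elastase, had -0.70 ± 0.25 with an adjusted p of 0.114 with limma. Without replicate 5 Slpi had -0.89 with an adjusted p of 0.00525, so 1 array decided whether it passed. A list of 15 receptors, some of which take up serpin complexes or bind Serpinf1 protein, had 5 lower and 0 higher, with a median of -0.17. Sort1 had -1.21 ± 0.14 and Lrp2, a clearance receptor for serpin complexes, had -1.25 ± 0.24, and Plxdc1 and Plxdc2, reported receptors of Serpinf1 protein, had -0.49 ± 0.12 and -0.55 ± 0.14. Stab1, a scavenger receptor, had -0.37 ± 0.09. Fits with 1 array left out were not read for Plxdc2. Of 18 genes of procollagen folding and its clients, Fkbp10 (0.69 ± 0.15) and Plod2 (0.44 ± 0.11), which act on procollagen beside Serpinh1 protein, were higher, and Col4a2 (-0.42 ± 0.09) was lower, with a median of -0.11. Several of these calls were close to the threshold, and leaving out 1 array ended that of Spink2 for 11 of the 12 arrays, Wfdc1 for 9, Plod2, Plxdc1 and Stab1 for 7 each, Ctsl for 4 and Fkbp10 for 1 (replicate 3).

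**Figure D5:**
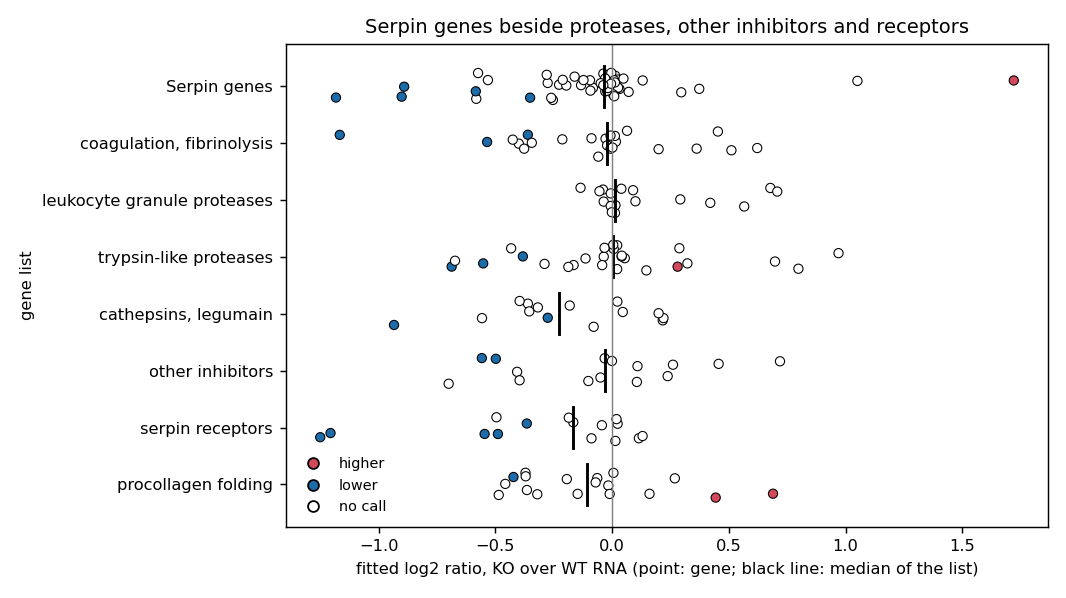
Fitted log2 ratio of KO over WT RNA (horizontal axis) of 49 of the 50 tested Serpin genes and of each tested gene in 7 lists of proteases, other inhibitors, receptors and procollagen genes, with a black line at the median of each list. Filled points passed an adjusted p of 0.05; the list medians lie between -0.23 (cathepsins, legumain) and 0.01, and Serpinf1 at 1.72 is the farthest point to the right.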

How the data were processed

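Arrays of design 014868 were read by Agilent Feature Extraction (version 10.1.1.1, protocol GE2-v5_10_Apr08), per the file headers. For each spot and dye the deposited files hold the mean intensity, as scanned, and the median intensity around the spot. They also hold flags of 0 or 1 for a spot above background, at saturation or out of line. A second deposited intensity was corrected for background, trends and dye by the scanner's software, per the file headers. The authors' series matrix gives a log2 ratio for every probe, for which the submitters' processing notes name limma. Its correlation with the ratios used here was 0.991 to 0.997 per array.

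With limma 3.58.1 and statmod 1.5.0 in R 4.3.3, mean signals were corrected with normexp (offset 50) and loess, with control and outlying spots at weight 0. Local backgrounds that were themselves outlying took the median of their array and dye. Probes well above background on at least 6 of 12 arrays for KO or for WT RNA were kept (35562 of 41174), and a gene took its kept probe of highest signal. Names came from RefSeq accessions for 22951 probes and from the file for 11755; 6468 had none. Ratios were turned to KO over WT and fitted with a dye term and a random block for the pair (its consensus correlation was 0.0789), with Benjamini-Hochberg adjustment over all 20595 genes. Levels per RNA were normalized further by Aquantile and are not comparable between probes. A pair's value comes from a second model with 1 coefficient per pair and the dye term. That term was estimated from pairs A and B and carried over to pairs C and D, so values of C and D can lie outside their measured ratios. The main fit and the F test between pairs were also run on simulated ratios with known changes, and the alternative fits were not. RefSeq sequences were read with Python 3.11.15 and aligned with Biopython 1.88. The number of arrays limits the precision.

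By rule, named genes were Dnmt3a, every called Serpin gene, up to 3 uncalled ones of smallest p per clade and up to 4 genes of smallest p per list. Other genes named lie outside this rule, among them Plxdc2, Serpina10, Serpinb1a and the cell type markers. Only some of these are marked as chosen after their values were seen. The values of 1 tested member are not reported here, though the counts and medians include it. The members and lists were chosen with earlier results of these data known. Alternatives covered background correction, normalization, probe filter, block, dye term, variance model, threshold, the authors' ratios and leaving out arrays, pairs and slides.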

Additional observations from a re-analysis of the deposited data

How the results depend on the processing

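The count of higher Serpin genes (1) rests on Serpinf1 near its threshold. It was 2 with the scanner's processed signals, with arrays taken as independent, with the pair block on red over green ratios, with the slide as random block, with array weights and at an adjusted p under 0.1. It was 0 with median centring, with each pair averaged to 1 value, with pairs A and B alone, when pair A, B or D was left out, with trended and robust variance, within slides 1, 2 and 3 and at an adjusted p under 0.01. Leaving out 1 array gave 0 to 2. The count of lower Serpin genes (5) was 1 with pair means, 3 with pairs A and B alone, 0 within slides 1, 2 and 3, and 3 at an adjusted p under 0.01, and leaving out 1 array gave 4 to 6. The count that differed between pairs stayed at 0. The cause was not tested. Fits within a slide had 4 arrays, and over all genes they made 0, 1 and 0 calls.

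The 3 Serpina1 genes stayed past the threshold under all alternatives but the fits within slides and, for Serpina1d (adjusted p 0.0612) and Serpina1e (0.0859), pair means; Serpina1b passed there. Under pair means Serping1 had 0.109, Serpinb6b 0.186 and Serpinf1 0.0643. Over all genes the calls were 359 with median centring (189 higher, 170 lower), 2212 with independent arrays, 48 with pair means, 867 with pairs A and B alone, 601 with trended and robust variance and 400 to 974 with a pair left out, against 1471. With local backgrounds as deposited, 766 were higher and 517 lower.

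Among the genes that the naming rule gave, signs turned only in some without a call. Signs under the alternatives were not read for genes named outside that rule. Serpinc1 had 0.0038 with median centring, 0.0057 with pair means, 0.00090 without pair A, 0.013 without pair B, 0.043 within slide 3, and between -0.023 and 0.011 without single arrays. Serpind1 had 0.12 with pairs A and B alone and 0.43 within slide 1. Serpini1 had 0.012 within slide 1 and 0.50 with the authors' ratios. Within slide 2, Serpinb8 had 0.042 and Gzmc 0.12. Dim probes limit the Serpina1b and Serpina1e sizes.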
